A study of Homo sapiens with 14 samples.

Results

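The genes described here encode the proteins of the mitochondrial ribosome. They were taken as the protein-coding genes (GENCODE type) of the deposited counts table with a symbol of MRPL or MRPS followed by a number, with pseudogenes left out, which gave 78 of 61541 genes. Of these, 51 encode proteins of the large subunit and 26 proteins of the small subunit. *MRPS36* carries the name of the family but its product belongs to the oxoglutarate dehydrogenase complex. The symbols do not always give the subunit: *MRPS30* and *MRPS18A* encode large subunit proteins. The genes lie on 21 chromosomes, and 77 of the 78 had enough counts to be tested. *MRPL53* (ENSG00000204822; chromosome 2, 74471958 to 74473322, GRCh38) had 0 counts in each library, and its exons overlap those of *CCDC142* on the same strand, which had 20.6 to 36.4 CPM.

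The mitochondrial ribosome is built from 2 RNAs encoded by the mitochondrial genome (*MT-RNR1* and *MT-RNR2*) and from proteins encoded in the nucleus, made in the cytosol and imported. It translates the few mRNAs of the mitochondrial genome, all of which encode subunits of the respiratory chain or the ATP synthase. Some of its proteins have counterparts in the bacterial ribosome, and others were added during the evolution of mitochondria. MYC, NRF1, GABPA and the PGC-1 coactivators are known regulators of nuclear genes for mitochondrial proteins.

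The data were gene-level counts of polyadenylated RNA from Jurkat cells, an established human line of T-cell acute lymphoblastic leukaemia. *KSR2* was targeted with guide 1 (n = 3) or with guide 2 (n = 3), and a non-targeting guide (NT, n = 2) served as control. Other cells received APS-2-79, an inhibitor of KSR (KSRi, n = 3), or its solvent DMSO (n = 3). KSR2 is a scaffold protein that brings RAF, MEK and ERK kinases together. The labels describe the guides as CRISPR knockout in one place and as CRISPR interference in another. The library names of the NT control say shRNA, while its sample titles say non-targeting guide. Dose, exposure time and time after transduction were not given in the sources used here, nor was whether guide cells and inhibitor cells shared a culture or a sequencing run. Whether replicates came from different cultures is not said, and the p-values cover the spread between libraries, which may be technical.

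Library totals ranged from 21710466 to 45897075 counts. *KSR2* itself averaged 0.541 ± 0.110 CPM with guide 1, 0.766 ± 0.0492 CPM with guide 2 and 29.5 ± 0.786 CPM in NT (SD, n = 3, 3 and 2), and 34.3 ± 1.20 CPM in KSRi against 37.0 ± 2.23 CPM in DMSO (n = 3 each). All 8 T lineage markers were detected, with summed levels of 1617 to 2446 CPM over the 14 libraries. Of the B-cell markers, *MS4A1* and *PAX5* were at or near 0, and *CD79A* averaged 57.3 ± 14.9 CPM in NT (n = 2) against 22.3 ± 0.607 CPM in DMSO (n = 3). Of the myeloid, erythroid, epithelial and fibroblast markers, *COL1A1* was the only one above 1 CPM, at 10.8 ± 2.26 CPM in KSRi against 6.24 ± 0.315 CPM in DMSO (n = 3 each). The KSRi libraries were the least alike of the groups, and replicate 1 stood apart among the genes described here, with the lowest of the 3 KSRi values for 51 of the 77 tested genes. The main counts and medians of the inhibitor comparison are therefore also given without it.

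Together the 78 genes took 0.314% ± 0.00794 of the counts with guide 1, 0.317% ± 0.00473 with guide 2 and 0.311% ± 0.00495 in NT (SD, n = 3, 3 and 2). They took 0.373% to 0.393% of the counts in the KSRi libraries (mean 0.385% ± 0.0106) against 0.431% ± 0.00404 in DMSO (n = 3 each). The 5 groups thus fell into 3 levels, with the guide libraries and NT at the lowest, KSRi in between and DMSO at the highest, and without overlap between the libraries of these levels. Transcripts of the mitochondrial genome did not follow that order. They took 2.03% ± 0.312, 1.79% ± 0.819 and 2.17% ± 0.460 of the counts with guide 1, with guide 2 and in NT, and 1.90% ± 0.709 in KSRi against 1.36% ± 0.0900 in DMSO. Within KSRi this mitochondrial share ranged from 1.12% to 2.51%, wider than its difference from DMSO. In bulk libraries a lower level per cell and fewer cells that make a transcript cannot be told apart.

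**Figure D1:**
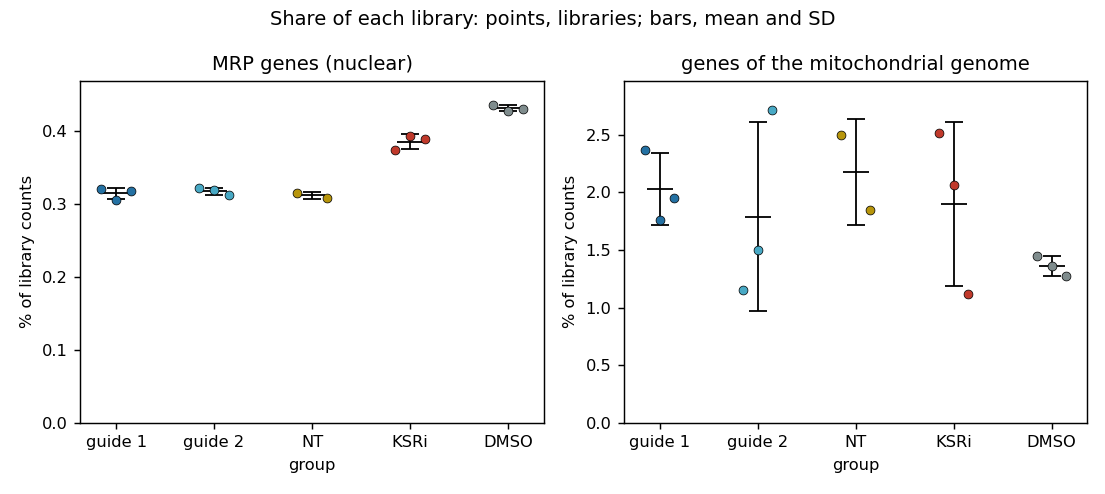
Share of each library's counts taken by the 78 mitochondrial ribosomal protein genes of the nucleus (left) and by the genes of the mitochondrial genome (right), in % of library counts. Points are libraries and bars are mean and SD (n = 3, 2 in NT). On the left the 8 libraries with guides lie between 0.305% and 0.321%, KSRi between 0.373% and 0.393% and DMSO between 0.427% and 0.435%, and on the right guide 2 and KSRi overlap DMSO while guide 1 and NT lie above it.

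Per length of transcript the genes spanned a wide range. The level was measured here as TPM, the counts divided by the total exon length of the gene and scaled to the same sum in each library. The highest means over all libraries were those of *MRPL3* (270 TPM), whose product lies near the peptidyl transferase centre, *MRPL45* (225 TPM), whose product sits at the exit of the peptide tunnel and contacts the inner membrane, and *MRPL37* (220 TPM), a large subunit protein without bacterial counterpart. Over libraries these 3 had SDs of 61.1, 27.7 and 54.5 TPM, which include differences between groups, and the order was not the same in every group. In NT *MRPL45* averaged 234 ± 7.87 TPM and *MRPL3* 215 ± 2.10 TPM (n = 2). The lowest tested genes were *MRPS28* (2.04 TPM), *MRPL2* (0.916 TPM), whose product is a core protein of the peptidyl transferase region, and *MRPS24* (0.755 TPM), the counterpart of bacterial S3 at the mRNA entry. A functional ribosome contains each of these proteins, and the scarce ones share exons with other annotated genes. *MRPS24*, *MRPS28* and *MRPL12* each overlap a readthrough or second gene model on the same strand that had 0 counts in all libraries, and *MRPL2* overlaps *KLC4* on the opposite strand, which had 21.3 to 47.7 CPM. The levels of these 4 genes are uncertain, since the treatment of shared reads was not given in the sources used here. In all, 41 of the 78 genes have an exon that overlaps another gene, 16 on the same and 29 on the opposite strand. Pseudogenes took few counts: of 79 of the family in the table, *MRPS31P5*, an unprocessed copy, alone averaged more than 1 CPM (7.51), and all of them summed to 9.24 CPM against 3613 CPM for the 78 genes.

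KSRi was compared with DMSO to find the genes that responded to the inhibitor. Falls occurred in both subunits. *MRPL1*, which encodes the protein of the mobile stalk where spent tRNA leaves, *MRPL3*, *MRPL20*, whose bacterial counterpart acts early in the assembly of the large subunit, and *MRPL4*, whose product lines the peptide tunnel, were among the lower ones, by 1.67-fold for *MRPL1*, 1.49-fold for *MRPL3* and 1.48-fold for *MRPL20*. *MRPS27*, a small subunit gene, was the only one called higher (1.23-fold). Levels below are in CPM, the usual unit of counts scaled to library size, here with TMM factors, and a gene was called at an adjusted p under 0.05 over all 18963 tested genes by edgeR's quasi-likelihood test.

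Of the 77 tested genes 20 were called lower (26.0%) and 1 higher (1.30%). Over all tested genes 18.7% were lower and 22.0% higher. An unadjusted p under 0.05 was reached by 28 (36.4%), against 48.8% of all tested genes. Their median log2 change was −0.10, with a range of −1.32 (*MRPL12*) to 0.29 (*MRPS27*), against a median of 0.02 over all tested genes. The KSRi and DMSO libraries did not overlap for 27 genes that were lower (35.1%, against 21.9% of all tested genes) and for 3 that were higher (3.90%, against 25.0%). Without KSRi replicate 1 the count was 18 lower and 5 higher, the 5 being *MRPS27*, *MRPL33*, *MRPL41*, *MRPS10* and *MRPS16*, and the median was −0.07. In that fit 21.2% of all tested genes were lower and 25.9% higher, and these genes were at 23.4% and 6.49%.

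Among the large subunit genes *MRPL1* (uL1m; ENSG00000169288; chromosome 4, 77862520 to 77952790) stood at 34.0, 27.4 and 28.4 CPM in KSRi, against 51.9, 49.8 and 48.7 CPM in DMSO. *MRPL3* (uL3m; ENSG00000114686; chromosome 3, 131462212 to 131502983) stood at 174, 187 and 162 CPM in KSRi, against 267, 259 and 257 CPM in DMSO. The highest KSRi library lay well under the lowest DMSO library for both. Genes named by the size of their fall or rise were chosen among those without overlap between KSRi and DMSO libraries. That these libraries do not overlap is therefore no separate result. The log2 change of *MRPL1* was −0.74 (SE 0.10, edgeR adjusted p = 1.33e-05) and that of *MRPL3* −0.58 (SE 0.07, edgeR adjusted p = 5.72e-06). *MRPL20* (bL20m; ENSG00000242485; chromosome 1, 1401908 to 1407313) stood at 60.1, 63.1 and 63.4 CPM in KSRi, against 99.4, 84.4 and 91.5 CPM in DMSO, a log2 change of −0.56 (SE 0.08, edgeR adjusted p = 3.29e-05). Its KSRi libraries were close together, while the DMSO libraries spread more. An antisense transcript and a pseudogene overlap its exons.

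*MRPL17*, which encodes a protein near the tunnel exit (bL17m; chromosome 11, 6680782 to 6683401), stood at 49.9, 57.7 and 44.7 CPM in KSRi, against 82.4, 70.3 and 72.6 CPM in DMSO (log2 change −0.56, SE 0.11, edgeR adjusted p = 0.000926). *MRPL4* (uL4m; chromosome 19, 10251901 to 10260045) stood at 70.2, 89.7 and 86.9 CPM in KSRi, against 121, 112 and 118 CPM in DMSO (log2 change −0.51, SE 0.11, edgeR adjusted p = 0.00108). *MRPL47* (uL29m; chromosome 3, 179588285 to 179604654), also of the tunnel exit, stood at 45.0, 41.5 and 35.9 CPM in KSRi, against 53.1, 54.9 and 52.3 CPM in DMSO (log2 change −0.39, SE 0.09, edgeR adjusted p = 0.0024). For these 3 genes too no KSRi library reached a DMSO library, which the choice of genes required. *MRPL12*, which encodes the stalk protein that recruits translation factors, had the largest change of all at a low level, 1.31, 1.44 and 1.77 CPM in KSRi against 3.48, 3.70 and 3.86 CPM in DMSO (2.50-fold lower, log2 change −1.32, SE 0.16, edgeR adjusted p = 7.04e-06). Reads of *MRPL12* may be shared with the overlapping gene model named above.

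Fewer small subunit genes were named by the size of their fall. *MRPS12* (uS12m; ENSG00000128626; chromosome 19, 38930548 to 38933162), whose product forms part of the decoding centre, stood at 32.4, 36.9 and 44.1 CPM in KSRi, against 55.4, 52.2 and 51.6 CPM in DMSO (log2 change −0.50, SE 0.11, edgeR adjusted p = 0.00147). *MRPS25* (mS25; chromosome 3, 15042460 to 15065335) stood at 99.3, 82.2 and 82.9 CPM in KSRi, against 124, 124 and 114 CPM in DMSO (log2 change −0.45, SE 0.08, edgeR adjusted p = 0.000238). Both genes overlap a neighbour on the opposite strand, *SARS2* and *NR2C2*. *MRPS27* (mS27; ENSG00000113048; chromosome 5, 72219409 to 72320646), a pentatricopeptide repeat protein, went the other way, with 190, 236 and 241 CPM in KSRi against 182, 177 and 185 CPM in DMSO (log2 change 0.29, SE 0.09, edgeR adjusted p = 0.0162). Its KSRi replicate 1 lay just above the highest DMSO library. The call was lost without DMSO replicate 2 (adjusted p = 0.0557), KSRi replicate 2 (0.0735) or KSRi replicate 3 (0.0658), all by edgeR.

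**Figure D2:**
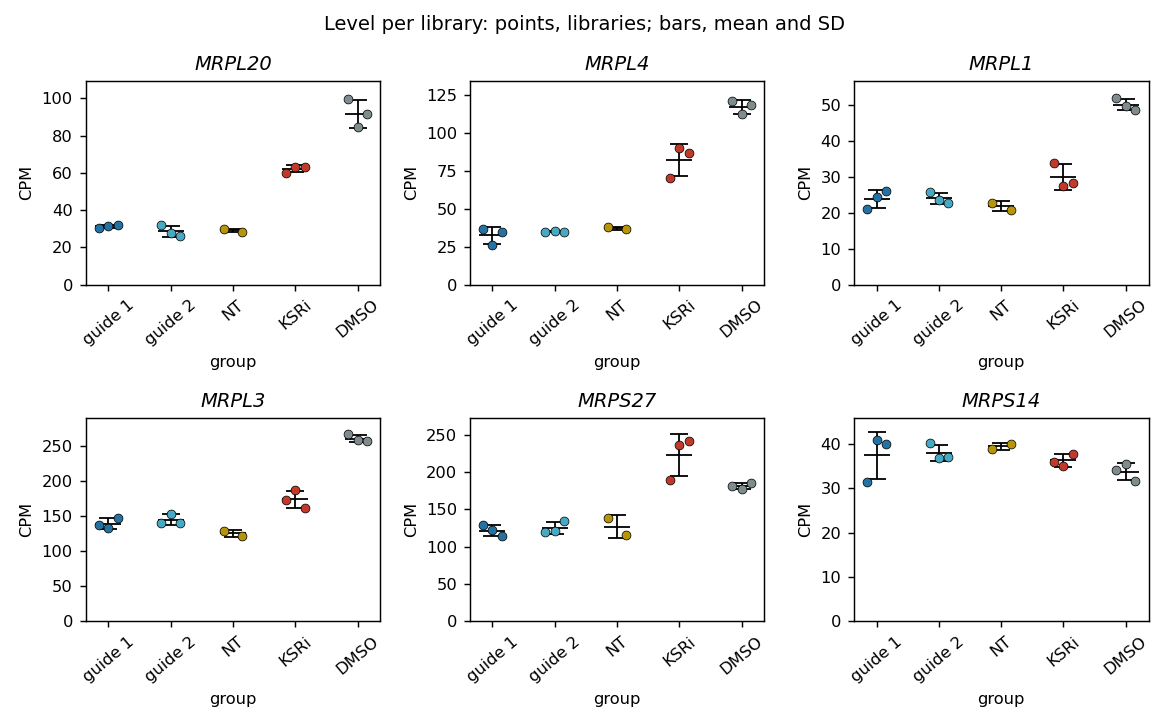
Level of 6 genes in each library, in CPM on axes from 0. Points are libraries and bars are mean and SD (n = 3, 2 in NT). *MRPL20*, *MRPL4*, *MRPL1* and *MRPL3* are lower in KSRi than in DMSO and lower in the guide and NT libraries than in DMSO, *MRPS27* is higher in KSRi than in DMSO, and *MRPS14* stays between 31.3 and 40.9 CPM in all libraries.

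By role, the falls were spread over both subunits. Of 50 tested large subunit genes 13 were lower and 0 higher (median log2 change −0.08), and of 26 small subunit genes 7 were lower and 1 higher (median −0.12). Genes with a bacterial counterpart were lower in 15 of 46 cases (median −0.18) and mitochondrion-specific ones in 5 of 30 (median −0.04). Within the large subunit alone this was 11 of 30 (median −0.21) against 2 of 20 (median −0.02). The difference between these classes was not tested. Without KSRi replicate 1 the large subunit had 12 lower and 2 higher (median −0.05), the small subunit 6 and 3 (median −0.09), genes with a bacterial counterpart 13 and 3 (median −0.12) and mitochondrion-specific ones 5 and 2 (median 0.05). The inhibitor's changes also followed base composition over the whole table: over 4 equal classes of tested coding genes, from the lowest to the highest GC content of their transcripts, the median log2 change was −0.12, 0.02, 0.10 and 0.18. The ribosomal genes of the same classes had medians of −0.18, −0.08, −0.06 and −0.06, below the coding genes in each. Without KSRi replicate 1 the coding genes had −0.18, 0.03, 0.16 and 0.25, and the ribosomal genes −0.19, 0.02, 0.02 and 0.00. Of the 37 tested genes without any exon overlap 6 were lower (16.2%, median −0.02), against 14 of the 40 with one (median −0.13). Of all tested genes 18.7% were lower, so the share lower among genes without an overlap was not above that of all genes. The higher share in the family thus came from genes with an overlap, for which the treatment of shared reads is not known. The difference between genes with and without an overlap was not tested.

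Some genes stand apart by their function or by where their protein sits. *MRPL58*, a peptidyl-tRNA hydrolase that became a large subunit protein and can free stalled ribosomes, averaged 35.9 ± 4.14 CPM in KSRi and 33.8 ± 3.51 CPM in DMSO (SD, n = 3 each; log2 change 0.09, edgeR adjusted p = 0.493). *MRPS30* averaged 78.9 ± 3.93 CPM in KSRi and 92.5 ± 4.78 CPM in DMSO (log2 change −0.23, edgeR adjusted p = 0.0192), a call lost without either DMSO replicate 1, DMSO replicate 3 or KSRi replicate 3. The 3 genes of the S18 family, of which a mitochondrial ribosome holds all 3 products at different places, gave different calls, and the differences between them were not tested. *MRPS18C*, the counterpart at the bacterial position, fell (35.2 ± 0.470 CPM in KSRi, 43.0 ± 1.19 CPM in DMSO, log2 change −0.29, edgeR adjusted p = 0.0152), a call lost without DMSO replicate 3 (edgeR adjusted p = 0.0577), whereas *MRPS18A* (log2 change 0.16, adjusted p = 0.252) and *MRPS18B* (0.00, adjusted p = 1.00) passed no test by edgeR. *MRPS36*, not a ribosomal subunit, had 19.3, 20.5 and 19.0 CPM in KSRi against 17.9, 18.7 and 16.6 CPM in DMSO (log2 change 0.15, edgeR adjusted p = 0.197).

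Promoter sequence was available for 69 of the 78 genes, in 85 windows from 250 bases before to 50 after an annotated start (RefSeq, GRCh38.p14). No entry was found for *MRPS36*, *MRPL35*, *MRPL10*, *MRPL21*, *MRPL13*, *MRPL2*, *MRPS28*, *MRPL15* and *MRPL23*. The windows below are those of 4 genes that fell with the inhibitor, of *MRPS27*, which rose, and of *MRPS14*, which was among the highest in NT relative to DMSO, so that genes of different behaviour can be read side by side. Capitals mark the letters searched, on both strands: TGCGCA (NRF1, its own reverse complement), CCGGAAG (ETS family, to which GABPA belongs), AAGATGGC (YY1) and CACGTG (E-box, bound by MYC among others). None of these motifs overlaps another in letters, apart from repeats of the NRF1 letters. They were chosen after values had been seen.

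*MRPL1* (chr4:77862580-77862879, plus strand): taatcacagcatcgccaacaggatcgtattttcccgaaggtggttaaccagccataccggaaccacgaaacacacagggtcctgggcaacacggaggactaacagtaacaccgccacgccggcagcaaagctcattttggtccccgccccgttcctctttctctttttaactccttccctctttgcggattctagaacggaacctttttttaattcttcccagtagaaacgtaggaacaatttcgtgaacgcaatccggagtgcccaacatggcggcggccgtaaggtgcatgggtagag
*MRPL3* (chr3:131502922-131503221, minus strand): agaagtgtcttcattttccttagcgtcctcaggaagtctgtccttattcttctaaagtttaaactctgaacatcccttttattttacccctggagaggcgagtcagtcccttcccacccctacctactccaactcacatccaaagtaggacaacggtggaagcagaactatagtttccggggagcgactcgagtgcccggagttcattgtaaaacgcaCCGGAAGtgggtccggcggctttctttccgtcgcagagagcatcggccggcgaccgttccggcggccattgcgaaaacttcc
*MRPL20* (chr1:1407244-1407543, minus strand): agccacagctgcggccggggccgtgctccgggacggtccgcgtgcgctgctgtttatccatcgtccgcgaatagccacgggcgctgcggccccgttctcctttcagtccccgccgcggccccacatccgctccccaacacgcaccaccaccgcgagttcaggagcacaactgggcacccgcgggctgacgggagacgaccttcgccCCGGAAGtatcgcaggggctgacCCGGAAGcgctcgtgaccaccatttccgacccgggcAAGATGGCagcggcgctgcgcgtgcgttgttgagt
*MRPL17* (chr11:6683291-6683590, minus strand): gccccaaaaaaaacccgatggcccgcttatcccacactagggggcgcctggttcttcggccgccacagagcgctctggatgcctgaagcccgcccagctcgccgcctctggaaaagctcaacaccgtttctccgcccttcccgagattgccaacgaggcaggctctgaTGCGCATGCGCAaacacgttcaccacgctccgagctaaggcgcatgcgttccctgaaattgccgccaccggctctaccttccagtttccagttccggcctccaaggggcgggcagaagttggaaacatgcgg
*MRPS27* (chr5:72320191-72320490, minus strand): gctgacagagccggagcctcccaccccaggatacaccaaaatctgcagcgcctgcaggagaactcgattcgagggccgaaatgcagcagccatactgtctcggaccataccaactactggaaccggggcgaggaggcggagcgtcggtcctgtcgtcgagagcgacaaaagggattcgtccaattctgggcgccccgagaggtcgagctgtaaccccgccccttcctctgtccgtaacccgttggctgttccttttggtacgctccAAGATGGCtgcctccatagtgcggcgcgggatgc
*MRPS14* (chr1:175023376-175023675, minus strand): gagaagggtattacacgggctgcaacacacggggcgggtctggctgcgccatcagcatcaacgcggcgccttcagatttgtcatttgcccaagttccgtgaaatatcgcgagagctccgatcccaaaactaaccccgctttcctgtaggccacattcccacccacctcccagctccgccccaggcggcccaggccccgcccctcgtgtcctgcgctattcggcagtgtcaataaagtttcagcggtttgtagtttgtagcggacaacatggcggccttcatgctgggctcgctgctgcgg

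Promoters of these genes held the ETS, YY1 and NRF1 letters more often than promoters at large, and the E-box about as often as tested coding genes. Some genes have more than 1 window, and overlapping windows of a gene repeat the same match. The ETS letters were in 38.8% of the 85 windows, against 10.3% of all 35116 windows of the same length and 16.2% of those of tested coding genes. The YY1 letters were in 27.1% of the 85, against 2.89% of all and 4.59% of tested coding windows. The NRF1 letters were in 17 of the 85, against 8.24% and 11.8%, and the E-box in 10.6%, against 7.26% and 9.21%. For scale, 18.7% of all tested genes and 26.0% of the 77 were lower in KSRi than in DMSO. Of 15 tested genes with the NRF1 letters 6 were lower (median log2 change −0.19), and of 53 without them 13 (median −0.07). With the ETS letters it was 7 of 29 (median −0.01), and without them 12 of 39 (median −0.13). With the YY1 letters it was 6 of 21 and without them 13 of 47 (median −0.08 for both), and with the E-box 1 of 9 (median −0.07) and without it 18 of 59 (median −0.10). In NT relative to DMSO the medians with and without were −0.68 and −0.75 for NRF1, −0.69 and −0.82 for ETS, −0.72 and −0.76 for YY1 and −0.86 and −0.74 for the E-box. The inhibitor medians with and without, in the fit that leaves out KSRi replicate 1, were −0.18 and −0.04 for NRF1, 0.08 and −0.08 for ETS, −0.08 and 0.03 for YY1 and 0.06 and −0.08 for the E-box. None of these differences was tested. A match describes letters in a window and was not tested as a binding site. *MRPL1* and *MRPS14* hold none of the 4 in the windows shown, and *MRPL20* holds the ETS letters at 2 positions before the start and the YY1 letters just after it.

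The comparison of each guide with NT asked whether loss of *KSR2* moved the same genes. None of the 77 was called with guide 1, with guide 2, with both guides together or between the guides. Over all tested genes edgeR called 0 higher in each of these comparisons and 0.00527% lower with guide 1, 0.0105% with guide 2, 0.0158% with both and 0.00527% between the guides. The lowest edgeR adjusted p among the genes was 0.951 for guide 1, 1.00 for guide 2 and 0.989 for both. An unadjusted p under 0.05 was reached by 6 genes with guide 1 (7.79%, against 4.64% of all tested genes), 7 with guide 2 (9.09%, against 3.60%), 8 with both (10.4%, against 4.16%) and 3 between the guides (3.90%, against 3.24%). DESeq2 and limma-voom also called 0 of them in these comparisons.

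With both guides the median log2 change of the genes was −0.01, and the extremes were −0.27 (*MRPL12*) and 0.43 (*MRPL21*). The 95% interval of the change lay within −0.5 to 0.5 for 70 of the 77 genes. *MRPL21* (bL21m; chromosome 11, 68891276 to 68903835), a large subunit protein with bacterial counterpart, stood at 24.5, 24.8 and 20.0 CPM with guide 1 and 25.3, 25.1 and 21.9 CPM with guide 2, against 16.4 and 18.4 CPM in NT. All 6 guide libraries lay above both NT libraries, but the change did not pass edgeR's test (log2 change 0.43, SE 0.14, unadjusted p = 0.00587, adjusted p = 0.989). Without a filter on low counts it passed, with an adjusted p of 0.0266 for both guides and 0.0446 for guide 2 by edgeR.

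*MRPL39*, a mitochondrion-specific large subunit gene (mL39; chromosome 21, 25585656 to 25607517), stood at 29.9, 30.6 and 32.9 CPM with guide 1 and 31.6, 34.7 and 33.1 CPM with guide 2, against 29.9 and 23.0 CPM in NT. *MRPS18C* stood at 29.5, 29.8 and 33.6 CPM with guide 1 and 33.9, 30.0 and 28.0 CPM with guide 2, against 27.8 and 22.8 CPM in NT. For both genes NT replicate 2 was the lowest of the 8 libraries, and neither passed edgeR's test (log2 change 0.29 and SE 0.09 for each, adjusted p = 0.989 for each). On the other side *MRPL28*, a large subunit gene with bacterial counterpart, stood at 32.9, 36.1 and 37.3 CPM with guide 1 and 36.6, 36.1 and 32.0 CPM with guide 2, against 40.9 and 38.6 CPM in NT (log2 change −0.18, edgeR adjusted p = 0.989). *MRPS18B* (log2 change −0.18) and *MRPS34* (−0.15) were also among the lowest unadjusted p in this direction, with the same adjusted p and with overlapping libraries. With guide 1 alone *MRPL35* (0.19) and *MRPS7* (−0.23) were also among the lowest unadjusted p, and with guide 2 alone *MRPS11* (−0.18) and *MRPL24* (−0.15), none past the adjusted threshold.

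The libraries of both guides lay entirely above NT for 8 genes (10.4%, against 4.41% of all tested genes) and entirely below it for 5 (6.49%, against 5.15%).

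Between the guides no gene was called either. The median log2 change of guide 2 minus guide 1 was 0.02, and the 95% interval lay within −0.5 to 0.5 for 70 of the 77. Guide 2 lay entirely above guide 1 for 9 genes (11.7%, against 4.99% of all tested genes) and entirely below it for 2 (2.60%, against 5.18%). The lowest unadjusted p was that of *MRPS7*, which encodes a small subunit protein at the mRNA exit, with 43.2, 39.4 and 42.1 CPM for guide 2 against 36.4, 33.5 and 37.9 CPM for guide 1 (log2 change 0.21, unadjusted p = 0.0388, edgeR adjusted p = 1.00). *MRPS9* (0.15) and *MRPL9* (0.18) were the next higher with guide 2, and *MRPS28* (−0.42), *MRPS36* (−0.15) and *MRPL20* (−0.13) the leading ones lower, none of them called.

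**Figure D3:**
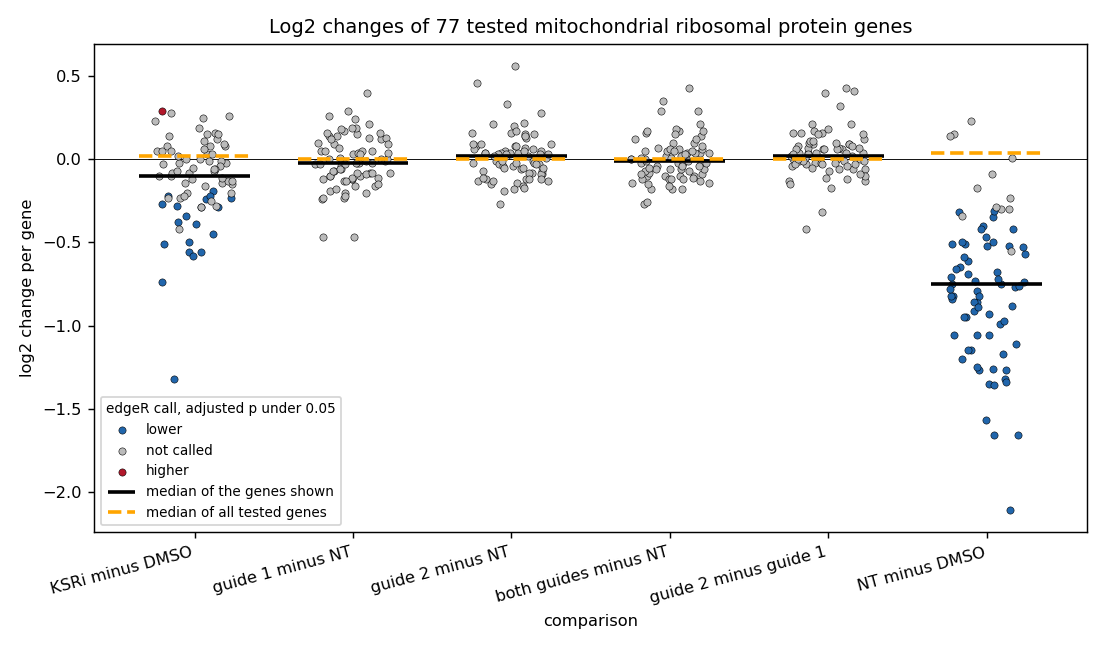
Log2 change of each of the 77 tested genes (points) in 6 comparisons, with colour for the edgeR call at an adjusted p under 0.05, the median of these genes (solid line) and the median of all tested genes (dashed line). The 4 comparisons among guide and NT libraries are centred on 0 with no calls, KSRi minus DMSO has a median of −0.10, and NT minus DMSO a median of −0.75.

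The 2 control groups were compared because they differ in more than the factor either was meant for: NT cells carried a guide and DMSO cells had been given solvent. Nearly the whole family was lower in NT. Of the 77 tested genes 65 were lower (84.4%) and 0 higher by edgeR, whereas over all tested genes 31.2% were lower and 34.6% higher. DESeq2 and limma-voom also called 0 higher, and an unadjusted p under 0.05 was reached by 70 (90.9%), against 68.5% of all tested genes. The median log2 change was −0.75, against 0.04 over all tested genes, and the falls called spanned 1.24- to 4.33-fold. The NT and DMSO libraries did not overlap for 69 genes that were lower (89.6%, against 37.8% of all tested genes) and for 1 that was higher (1.30%, against 41.5%). Guide, transduction, solvent, culture and sequencing run cannot be told apart in this difference. It shares the DMSO libraries with the inhibitor comparison and the NT libraries with the guide comparisons.

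*MRPL20* and *MRPL4* fell the most among the genes with a sizeable level. *MRPL20* had 29.8 and 28.4 CPM in NT, against 99.4, 84.4 and 91.5 CPM in DMSO (3.15-fold lower, log2 change −1.66, SE 0.09, edgeR adjusted p = 1.71e-10). *MRPL4* had 37.6 and 36.5 CPM in NT, against 121, 112 and 118 CPM in DMSO (3.15-fold lower, log2 change −1.66, SE 0.13, edgeR adjusted p = 5.54e-09). For both, every NT library lay below each DMSO library, and the NT libraries were closer together than the DMSO libraries. *MRPL3* had 129 and 122 CPM in NT against 267, 259 and 257 CPM in DMSO (2.08-fold lower, log2 change −1.06, SE 0.08, edgeR adjusted p = 4.96e-09). *MRPS12* of the decoding centre was 2.97-fold lower (log2 change −1.57, SE 0.13) and *MRPL12* of the stalk 4.33-fold lower at 0.652 and 1.01 CPM in NT against 3.48, 3.70 and 3.86 CPM in DMSO. *MRPS27*, higher with the inhibitor, was lower here, with 138 and 116 CPM in NT against 182, 177 and 185 CPM in DMSO (log2 change −0.52, edgeR adjusted p = 0.000317).

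The 12 genes that were not called were *MRPL2*, *MRPS28*, *MRPS16*, *MRPL38*, *MRPL57*, *MRPS36*, *MRPL10*, *MRPL45*, *MRPL50*, *MRPS21*, *MRPL48* and *MRPS14*, of which *MRPS36* is no ribosomal subunit. *MRPS14* (uS14m; ENSG00000120333; chromosome 1, 175010789 to 175023425), whose product lies in the head of the small subunit, had 38.9 and 39.9 CPM in NT against 34.0, 35.4 and 31.6 CPM in DMSO. It was the one gene with both NT libraries above all DMSO libraries (log2 change 0.23, SE 0.10, edgeR adjusted p = 0.0571). It overlaps *CACYBP* on the opposite strand. *MRPL48* (mL48; chromosome 11, 73787316 to 73865133) had 33.2 and 35.2 CPM in NT against 33.3, 29.9 and 29.2 CPM in DMSO (log2 change 0.15, edgeR adjusted p = 0.138). *MRPL45* had 90.2 and 82.2 CPM in NT against 90.0, 93.6 and 90.9 CPM in DMSO (log2 change −0.09, edgeR adjusted p = 0.479).

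The TMM factors were 1.072 and 1.095 for NT and 0.8815 to 0.9126 for DMSO. With library totals alone the median over all genes moved to 0.31, the genes' median to −0.48 and the counts to 56 lower and 3 higher (*MRPS14*, *MRPL48* and *MRPL50*), with 3767 of all tested genes lower and 8759 higher in place of 5909 and 6568. With upper-quartile factors the corresponding medians were 0.26 and −0.54 and the counts 60 lower and 2 higher. Relative to the median of all genes the family stood at −0.80 with TMM and −0.79 with either of the others. Other scaling factors move all genes by nearly the same amount, so this distance could hardly change and is no check. With only genes of at least 5 CPM in 3 libraries tested, the median was −0.61 for the family and 0.002 for all genes. The genes' median lay below 0 under each alternative run.

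**Figure D4:**
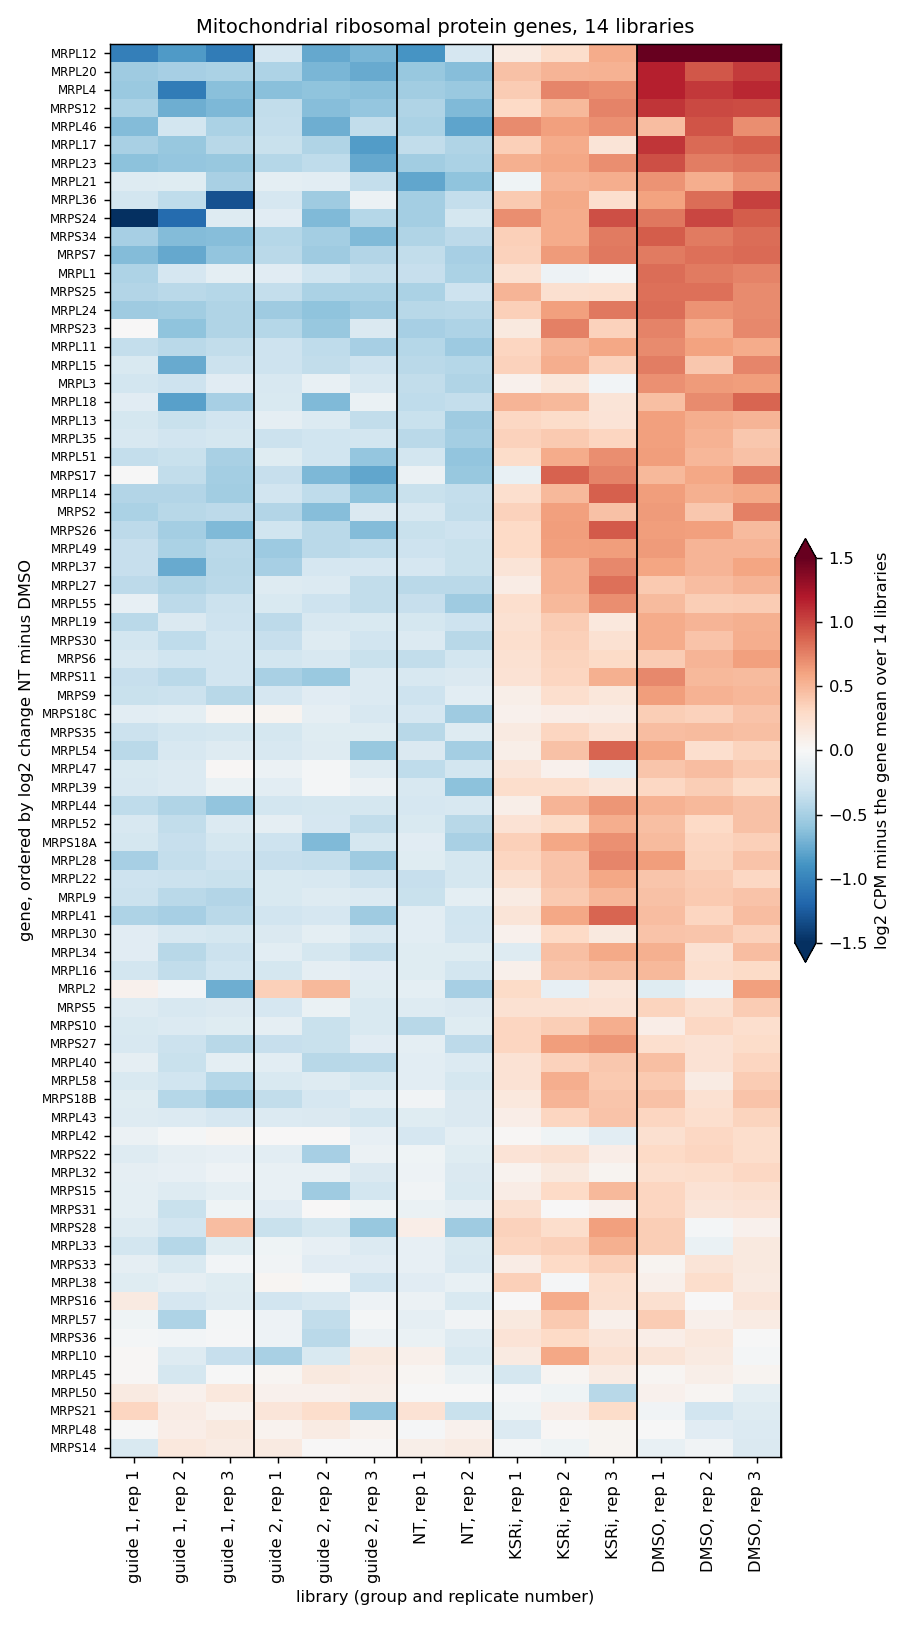
Level of the 77 tested genes (rows, ordered by the log2 change of NT minus DMSO) in the 14 libraries (columns by group and replicate), as log2 CPM minus the mean of the gene over all libraries. Blue is below and red above that mean. The guide and NT columns are blue and the KSRi and DMSO columns red for most rows, KSRi is paler than DMSO in many of the upper rows, and the rows at the bottom from *MRPL45* to *MRPS14* show little difference.

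By role, 43 of 50 large and 22 of 26 small subunit genes were lower in NT than in DMSO, with medians of −0.75 and −0.77. Of all tested genes 31.2% were lower there. Genes with a bacterial counterpart were lower in 40 of 46 cases (median −0.83) and mitochondrion-specific ones in 25 of 30 (median −0.68). By base composition, the 4 classes of coding genes from low to high GC content had medians of −0.12, −0.11, −0.12 and 0.05, and the ribosomal genes in them −0.65, −0.53, −0.87 and −0.87. Of 37 genes without exon overlap 30 were lower (median −0.74). *MRPL58* was 1.43-fold lower (23.7 ± 1.14 CPM in NT, 33.8 ± 3.51 CPM in DMSO), *MRPS30* 1.77-fold, *MRPS18A* 1.63-fold, *MRPS18B* by a log2 change of −0.50 and *MRPS18C* 1.71-fold, all called by edgeR. Over all 14 libraries 61 of the 77 genes (79.2%) had each of the 8 guide-bearing libraries below each of the 6 others, against 23.4% of all tested genes, and 0 had them above, against 23.7%. Comparisons of the guides with DMSO were not part of the design.

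A further contrast asked whether the inhibitor effect (KSRi minus DMSO) differed from the guide effect (both guides minus NT). It uses all 5 groups, and each effect is set against its own control. The inhibitor effect was the lower for 16 of the 77 genes (20.8%, against 12.1% of all tested genes) and the higher for 0 (against 16.6%), with a median difference of −0.06. Without KSRi replicate 1 the median was 0.01 with 16 genes lower and 2 higher, and without KSRi replicate 3 it was −0.15. Of the 16 genes called with all libraries 13 were themselves lower with the inhibitor, and 0 were called with the guides. An unadjusted p under 0.05 was reached by 24 of the 77 (31.2%), against 40.1% of all tested genes. The largest differences at a sizeable level were those of *MRPL1* (−0.88, SE 0.14, edgeR adjusted p = 0.000199), with an inhibitor effect of −0.74 and a guide effect of 0.14, and *MRPL3* (−0.76, SE 0.10, edgeR adjusted p = 3.39e-05), with an inhibitor effect of −0.58 and a guide effect of 0.18. *MRPL42*, a mitochondrion-specific large subunit gene, had an inhibitor effect of −0.34 and a guide effect of 0.16 (difference −0.50, SE 0.09, edgeR adjusted p = 0.00089). In the 3 others, *MRPL21*, *MRPL35* and *MRPL39*, neither effect alone was called. At the upper end *MRPS27* (0.33), *MRPL33* (0.30) and *MRPL41* (0.32) missed the threshold (edgeR adjusted p = 0.0648, 0.15 and 0.189). The call of *MRPS27* and of *MRPL41* appeared without KSRi replicate 1 (0.43 and 0.48, edgeR adjusted p = 0.00214 and 0.00792).

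Genes that make, load or regulate the mitochondrial ribosome were read beside its proteins, from lists of pathway genes. For comparison, 18.7% of all tested genes were lower and 22.0% higher with the inhibitor, and 31.2% lower and 34.6% higher in NT relative to DMSO. Some mitoribosome proteins have no MRP symbol. With the inhibitor 2 of 5 were lower and 0 higher (median log2 change −0.12), and in NT relative to DMSO 5 of 5 were lower (median −0.83). *PTCD3*, a pentatricopeptide repeat protein of the small subunit, had 139, 127 and 115 CPM in KSRi against 171, 159 and 175 CPM in DMSO (log2 change −0.40, edgeR adjusted p = 0.000239). *DAP3*, a GTP-binding protein of the small subunit, had 160, 198 and 194 CPM in KSRi against 220, 212 and 208 CPM in DMSO (log2 change −0.21, edgeR adjusted p = 0.0369), a call lost without KSRi replicate 1 (−0.12, edgeR adjusted p = 0.118). *AURKAIP1* (0.03), *CHCHD1* (−0.01) and *GADD45GIP1* (−0.12) did not pass with the inhibitor, while all 5 were called lower in NT, *GADD45GIP1* the most (2.62-fold).

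Of 27 assembly and rRNA-modifying factors 7 were lower and 4 higher with the inhibitor (median −0.07). These counts are near the shares of all tested genes, 18.7% lower and 22.0% higher. In NT relative to DMSO 23 were lower and 2 higher (median −0.76), against 31.2% and 34.6% of all tested genes. *MRM1*, which methylates the large rRNA, had 20.1, 21.9 and 21.0 CPM in KSRi and 7.38 and 7.67 CPM in NT, against 34.1, 31.8 and 32.5 CPM in DMSO. It was 1.56-fold lower with the inhibitor and 4.35-fold lower in NT (edgeR adjusted p = 5.3e-06 and 1.05e-11). *FASTKD2*, an RNA-binding assembly factor, was 1.61-fold lower with the inhibitor. *NSUN4*, which methylates the small rRNA and joins the subunits, went up with it, at 89.3, 104 and 112 CPM in KSRi against 64.4, 64.3 and 63.3 CPM in DMSO (1.59-fold, edgeR adjusted p = 5.15e-06), as did *MPV17L2* (1.49-fold). Both were lower in NT than in DMSO, by 1.33- and 2.40-fold.

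Translation factors, with 7 of 16 lower and 1 higher with the inhibitor, had a median of −0.27, and 11 were lower and 1 higher in NT. *LRPPRC*, which stabilises mitochondrial mRNAs, had 195, 168 and 161 CPM in KSRi against 275, 286 and 268 CPM in DMSO (log2 change −0.66, edgeR adjusted p = 3.1e-06). *MRRF*, the ribosome recycling factor, was 1.47-fold lower, and *TACO1*, an activator of the translation of one mitochondrial mRNA, 1.31-fold higher. Of 19 mitochondrial tRNA synthetases 8 were lower and 0 higher with the inhibitor (median −0.17), among them *MARS2* (1.51-fold) and *CARS2* (1.47-fold), and 16 lower and 1 higher in NT (median −0.81). Of 13 genes of mitochondrial transcription and DNA maintenance 8 were lower and 1 higher (median −0.46), including *TFAM*, the packaging and transcription factor of mitochondrial DNA (log2 change −0.58), and *TFB2M* (1.48-fold lower), with *MGME1* 1.26-fold higher, and 10 were lower and 1 higher in NT (median −0.95). Of 22 tested import genes 12 were lower and 0 higher (median −0.24), such as *HSPA9*, the chaperone that pulls proteins through the inner membrane (499 ± 19.8 CPM in KSRi, 729 ± 7.90 CPM in DMSO, SD, n = 3 each), and its partner *PAM16* (2.10-fold lower), and 19 were lower and 0 higher in NT (median −0.88). Of all tested genes 18.7% were lower and 22.0% higher with the inhibitor, and 31.2% and 34.6% in NT. No gene of these lists was called with the guides. In the fit without KSRi replicate 1, 21.2% of all tested genes were lower and 25.9% higher. With KSRi replicate 1 left out, the counts lower and higher with the inhibitor were 1 and 0 of 5 for mitoribosome proteins without an MRP symbol, 7 and 6 of 27 for assembly, 10 and 2 of 16 for translation factors, 7 and 1 of 19 for tRNA synthetases, 8 and 3 of 13 for transcription and DNA maintenance, and 9 and 1 of 22 for import.

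**Figure D5:**
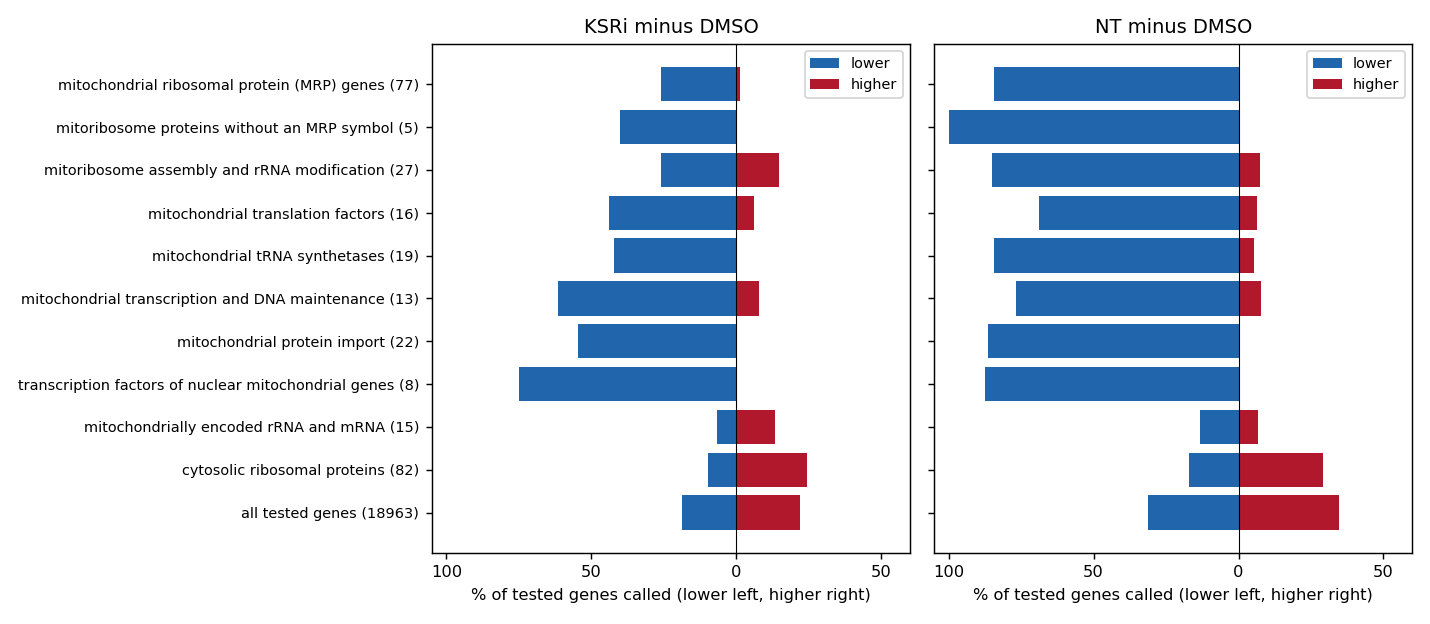
Share of the tested genes of each list called lower (left of 0) or higher (right of 0) by edgeR at an adjusted p under 0.05, for KSRi minus DMSO and for NT minus DMSO, in % of tested genes (number tested in brackets), with all tested genes in the last row. In the right panel the MRP genes reach 84.4% lower and 0% higher, against 31.2% and 34.6% of all tested genes, and 14 of the 82 cytosolic ribosomal protein genes are lower and 24 higher.

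Of 8 tested transcription factors and coactivators known to act on nuclear genes for mitochondrial proteins 6 were lower with the inhibitor (median −0.42) and 7 in NT relative to DMSO (median −0.45). *MYC* had 424, 428 and 369 CPM in KSRi and 115 and 116 CPM in NT, against 586, 551 and 567 CPM in DMSO, a log2 change of −0.48 with the inhibitor and of −2.29 in NT (edgeR adjusted p = 2.9e-05 and 1.27e-12). *PPARGC1B*, a coactivator of mitochondrial genes, had 41.6, 44.1 and 39.4 CPM in KSRi and 17.2 and 19.4 CPM in NT, against 72.4, 73.2 and 76.7 CPM in DMSO (log2 changes −0.83 and −2.02). *PPRC1*, a related coactivator, was 1.54-fold lower in KSRi and 3.50-fold lower in NT. *NRF1* was not called with the inhibitor (log2 change −0.11, edgeR adjusted p = 0.237) and was 1.34-fold lower in NT. In the fit without KSRi replicate 1, 5 of the 8 were lower with the inhibitor, with *MYC* at −0.51 and *PPARGC1B* at −0.82. Whether these levels followed those of the ribosomal genes from library to library was not tested, nor was their part in the result. *MYC* and the other factors were not called with the guides relative to NT.

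The rRNAs and mRNAs of the mitochondrial genome were mostly not called. Of 15 tested genes 2 were higher and 1 lower with the inhibitor (median 0.25), against 22.0% and 18.7% of all tested genes. In NT relative to DMSO 1 was higher and 2 lower (median 0.12), against 34.6% and 31.2%. Their changes were measured with less precision than those of most MRP genes. In the inhibitor fit without KSRi replicate 1 their SEs ran from 0.11 (*MT-ND6*) to 0.74 (*MT-ATP8*), against 0.07 for *MRPL3*. A missing call is therefore no sign of a steady level. *MT-RNR2*, the rRNA of the large subunit, had 1042, 972 and 742 CPM in KSRi and 1844 and 1542 CPM in NT, against 765, 733 and 786 CPM in DMSO, which gave no call with the inhibitor (log2 change 0.27, edgeR adjusted p = 0.181) and a rise in NT (log2 change 1.15, edgeR adjusted p = 1.74e-05). *MT-RNR1*, the rRNA of the small subunit, was lower in NT (log2 change −0.49, edgeR adjusted p = 0.0156) and not called with the inhibitor (−0.24, edgeR adjusted p = 0.197). Selection of polyadenylated RNA limits what these rRNA levels mean. *MT-CO1* and *MT-CO2*, subunits of cytochrome c oxidase, were higher with the inhibitor (1.59- and 1.90-fold, edgeR adjusted p = 0.0257 and 0.0288), with KSRi libraries of 10290, 8847 and 6130 CPM for *MT-CO1* against 5753, 5098 and 5005 CPM in DMSO. Without KSRi replicate 1, the highest of them, *MT-CO1* was no longer called (log2 change 0.50, edgeR adjusted p = 0.0717) and *MT-CO2* was (0.81, edgeR adjusted p = 0.0482), and the median of the 15 was 0.00. *MT-ND6*, the one mRNA of the light strand, had 12.7, 12.3 and 11.8 CPM in KSRi against 33.6, 36.6 and 39.6 CPM in DMSO (2.99-fold lower, edgeR adjusted p = 1.87e-09).

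Of 82 tested cytosolic ribosomal protein genes 20 were higher and 8 lower with the inhibitor (median log2 change 0.15). Of the 77 mitochondrial ones 1 was higher and 20 lower (median −0.10). Among all tested genes 22.0% were higher and 18.7% lower, so the cytosolic share higher was near that of all genes. With KSRi replicate 1 left out 37 cytosolic genes were higher and 8 lower (45.1% and 9.76%, median 0.26), against 5 and 18 mitochondrial ones. In that fit 25.9% of all tested genes were higher and 21.2% lower. In NT relative to DMSO 24 cytosolic genes were higher and 14 lower (median 0.12), against 0 and 65 mitochondrial ones (median −0.75). There 34.6% of all tested genes were higher and 31.2% lower, above both cytosolic shares. The difference between the lists was not tested.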

How the data were processed

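RNA sequencing of polyadenylated RNA was available for 14 Jurkat libraries in 5 groups. The values the authors deposited are raw counts, whole numbers for each Ensembl ID. Tools named per the submitters' processing notes are STAR 2.7.11b and DESeq2 1.42.1, with GRCh38 as build. The counter, its strand handling and the annotation version were not given in the sources used here, which matters for genes that overlap others.

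The fit used edgeR 4.0.16 (R 4.3.3) after TMM scaling, with filterByExpr on the 5 groups (18963 of 61541 genes, at least 99.93% of each library's counts), group means fitted over the 14 libraries together with a shared spread (common biological coefficient of variation 8.6%), the quasi-likelihood F test, and Benjamini-Hochberg adjustment over every tested gene, called under 0.05. Contrasts were KSRi minus DMSO, guide 1, guide 2 and both minus NT, guide 2 minus guide 1, NT minus DMSO, and the difference of inhibitor and guide effects. Gene types, positions and exon lengths came from GENCODE release 29 (GRCh38), and promoter sequences from RefSeq (GRCh38.p14). Errors are given as SD over libraries and as the SE of each log2 change. The procedure was also run on simulated counts in which a small set of genes was changed in a single group. Far more genes were called between NT and DMSO, a setting that the simulation did not cover. Every pair of replicates differed beyond counting error, with a chi-square of 5.46 to 45.04 per degree of freedom over genes (highest between KSRi libraries), and none was merged.

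Named genes were the 8 called with the largest fall and the 8 with the largest rise in KSRi (of at least 5 CPM and with no overlap between libraries), up to 3 per direction of lowest p in each other comparison, the 3 highest and 3 lowest by level, up to 2 per direction from each related list, a fixed set of special genes, and any gene removed by the filter. *NRF1*, *MYC*, *MRPS10*, *MRPS16* and the 12 genes not called in NT minus DMSO were named after their values were seen. The members, lists and rules were chosen with earlier results of these data known. Alternatives were RLE and upper-quartile factors, library totals alone, no filter, at least 5 CPM in 3 libraries, DESeq2 1.42.0, limma-voom (limma 3.58.1), only the groups compared, a replicate block, an adjusted p under 0.01, and each library left out in turn.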

Additional observations from a re-analysis of the deposited data

Results flagged for a closer look

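The inhibitor effect (KSRi minus DMSO) and the guide effect (both guides minus NT) differed by the test of the difference itself for 16 of the 77 tested genes. In each of the 16 the inhibitor effect was the lower (20.8%, against 12.1% of all tested genes), while it was the higher for 16.6% of all tested genes. An unadjusted p under 0.05 by edgeR was reached by 31.2% of the 77, against 40.1% of all tested genes. Without KSRi replicate 1 the median difference was 0.01, with 16 genes lower and 2 higher. Among the genes named by the rules the differences on the log2 scale were −1.05 for *MRPL12*, which is scarce and overlaps another gene model, −0.88 for *MRPL1*, −0.76 for *MRPL3*, −0.71 for *MRPL21*, −0.60 for *MRPL20*, −0.59 for *MRPL47*, −0.57 for *MRPS18C*, −0.50 for *MRPL42*, −0.48 for *MRPS12*, −0.46 for *MRPL17*, −0.41 for *MRPS25*, −0.37 for *MRPL39*, −0.34 for *MRPL35* and −0.32 for *MRPS9*. *MRPL21*, *MRPL35* and *MRPL39* have no call for the inhibitor, and their guide effects were 0.43, 0.17 and 0.29. Each guide lay above NT for 10 of the 16 genes and below it for 3, with the guides on opposite sides for 3, all without a call, and the guide effect is measured against 2 NT libraries. Without NT replicate 1 or without NT replicate 2 the count was 11 in place of 16, and it was also 11 without DMSO replicate 1. Of the genes named, with 1 library left out in turn the call was lost in 9 fits for *MRPL17*, 8 for *MRPL39*, 3 for *MRPS12*, 2 for *MRPS9*, and 1 each for *MRPS25* (edgeR adjusted p = 0.0982), *MRPL12* (0.0656) and *MRPL21* (0.0687) without NT replicate 1 and *MRPL35* (0.0997) without NT replicate 2.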

How the results depend on the processing

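For KSRi minus DMSO the number of genes called lower was 13 at an adjusted p under 0.01 and 16 to 25 with 1 library left out, and the number higher was 0 at an adjusted p under 0.01, 2 with upper-quartile factors or without a filter, and 0 to 5 with 1 library left out, the 5 without KSRi replicate 1. The median was −0.15 to −0.07 with 1 library left out. For NT minus DMSO the number lower was 61 to 68 with 1 library left out, and the number higher was 2 with upper-quartile factors, 3 with library totals alone, 1 without a filter, 2 with the filter of 5 CPM (73 genes tested), 2 with only the groups compared and 0 to 1 with 1 library left out. The median was −0.54 with upper-quartile factors, −0.48 with library totals alone and −0.78 to −0.72 with 1 library left out. It was −0.61 with the filter of 5 CPM, which removed 4 scarce genes of the family and left 11543 genes in the fit. Without a filter 1 gene (*MRPL21*) was called higher with guide 2 and 1 with both guides, and otherwise 0 genes were called for the guides under the alternatives run, with medians of −0.06 to 0.01 for guide 1, −0.02 to 0.03 for guide 2, −0.03 to 0.01 for both and 0.01 to 0.05 between the guides with 1 library left out. The inhibitor effect minus the guide effect gave 8 genes lower at an adjusted p under 0.01 and 11 to 17 with 1 library left out, 1 higher with library totals alone and 0 to 2 with 1 library left out, and a median of −0.15 to 0.01, the last without KSRi replicate 1. It has no fit of only the groups compared, since it uses all 5. A replicate block gave 20 lower and 1 higher for KSRi minus DMSO and 65 lower and 0 higher for NT minus DMSO. For the difference it gave 15 lower and 0 higher. Deviations of same-numbered libraries from their group means had correlations of −0.096 to 0.111. With 2 or 3 libraries per group such deviations are tied to each other, so they cannot tell whether libraries shared a culture or a run. Where 1 NT library is left, it is assumed to vary like the other groups. The causes of these changes were not tested. Over the single genes named, 1983 of 2067 values kept both their direction and their side of the threshold. Another 42 turned direction without a call in either fit, 30 newly passed the threshold and 12 no longer did. None turned its direction while called. DESeq2, limma-voom and RLE factors changed no count of the genes described here by more than 1.5 times. Over all tested genes DESeq2 called 3 higher and 6 lower with guide 1, 2 and 4 with guide 2, 3 and 6 with both and 0 and 2 between the guides, in place of 0 and 1, 0 and 2, 0 and 3 and 0 and 1, and limma-voom 1 lower with both. Depth limits *MRPL2*, *MRPS24*, *MRPS28* and *MRPL12*, which average under 4 CPM in every group.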
